A study of Mus musculus with 8 samples.

Results

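Cells hold on to their surroundings through integrins, receptors built from an alpha and a beta subunit, and much of what they bind is laminin, a trimer of an alpha, a beta and a gamma chain, or fibronectin. In bone marrow these contacts anchor stromal precursors and osteoblasts to collagen and fibronectin, and they hold leukocytes and adipocytes, the latter inside a laminin sheath. The genes described here are 41 integrin, laminin and adhesion matrix genes, chosen by gene name from an RNA-seq table of 47732 entries. They comprise 18 integrin subunits of stromal or epithelial cells, 7 of leukocytes and platelets, 10 laminin chains and 6 other matrix genes. All 41 were in the table, under 42 entries, because Itgam has a second, overlapping entry that was not used.

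RNA was sequenced from bone marrow mesenchymal stem cells (MSCs) of C57BL/6 mice, flushed from tibiae and femurs and cultured in 10% serum. Every sample spent 2 days in osteogenic medium containing dexamethasone (100 nM), β-glycerophosphate (5 mM) and ascorbic acid (50 μg/ml). The cKO group held 2 libraries of genotype Prx1-Cre;Mettl3fl/fl. Their Cre is driven by the Prx1 enhancer, active in early limb mesenchyme, and removes exons of Mettl3, the methyltransferase that writes m6A on mRNA. The WT group held 2 libraries whose label is wild type, and the study names these controls Mettl3fl/fl. No label ties a library to an animal or gives an age, so p-values cover only the spread between these libraries. The m6A peaks came from MeRIP-Seq of wild-type MSCs, with 2 m6A immunoprecipitates and 2 inputs behind 1 peak list.

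The 4 libraries held 23978099 to 34106693 counts. Mettl3 itself did not separate the groups, with 17.6 and 16.9 CPM (counts scaled to 1000000 per library) in WT and 17.5 and 16.3 CPM in cKO (adjusted p = 0.824, edgeR), and a whole-gene count does not show whether its deleted exons are missing. The study reports the deletion by immunostaining and western blot, and a lower m6A level in MSCs by mass spectrometry. The 2 cKO libraries were far more alike (biological coefficient of variation 1.92%) than the 2 WT libraries (12.3%). Of 12 stromal markers 4 were called higher (Thy1 most, log2 fold change 4.59) and 7 lower (Nt5e most, -2.35). Their sum was 1868 and 1745 TPM, a level that also corrects for transcript length, in WT and 1421 and 1417 TPM in cKO, with Lepr near 0 (0.21 to 0.60 TPM). The 12 leukocyte and macrophage markers summed to 20735 and 26098 TPM in WT and 28745 and 28895 TPM in cKO, most of it Lyz2. The libraries thus hold leukocyte RNA beside stromal RNA, and in such bulk RNA fewer cells of a type and less RNA per cell cannot be told apart.

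Between cKO and WT, 10 of the 39 genes tested were higher and 14 were lower (edgeR, adjusted p under 0.05), and 15 did not pass. That is 61.5% of these genes, beside 30.5% of the 15327 genes tested in all, of which 13.7% were higher and 16.8% lower. The median log2 fold change was -0.08 over these genes and 0.00 over all, so the changes ran both ways. On the TPM scale (limma) the calls over all genes split otherwise, 1620 higher and 1232 lower against 2100 and 2577 here, while 8 and 10 of these genes were called. A change of at least 2-fold with unadjusted p under 0.05 was found for 12 of the 39, 4 higher and 8 lower, which is 30.8% beside 10.5% of all genes. Itgae (6 and 5 counts in WT, 5 and 4 in cKO) and Itgb6 (0 and 2, 0 and 2) were below the filter on low counts.

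**Figure D1:**
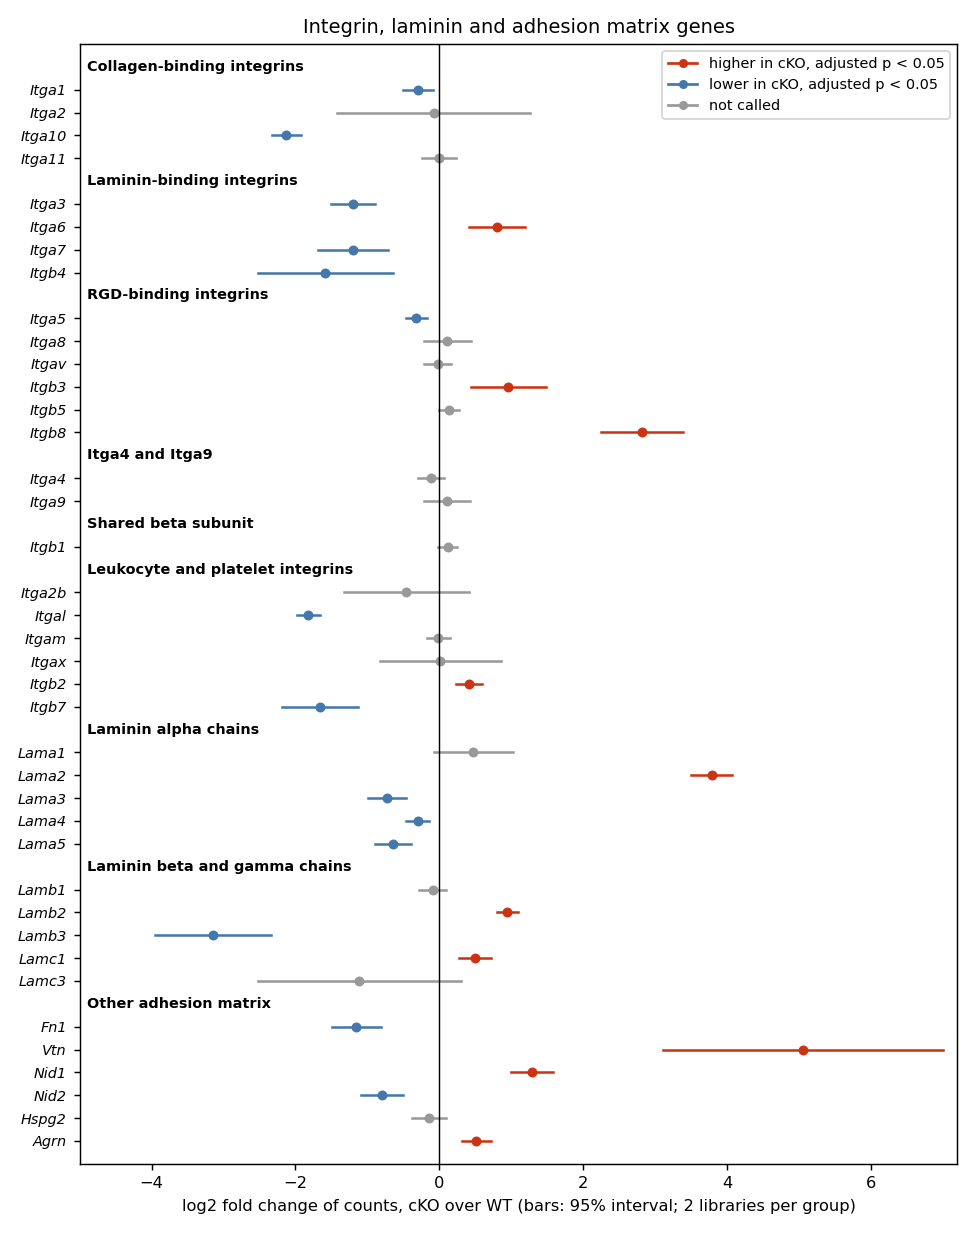
Log2 fold change of counts, cKO over WT, for the 39 genes tested, grouped by role. Points are edgeR estimates and bars 95% intervals from 2 libraries per group. Lama2, Itgb8 and Vtn lie farthest to the right and Lamb3, Itga10 and Itgal farthest to the left; the Vtn estimate rests on 1 count in WT. The interval of each uncalled gene spans 0.

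The laminin chains changed in makeup. Lama2, the alpha chain of muscle and nerve basement membranes, rose from a minor to the most abundant alpha chain, whereas Lama3, Lama4 and Lama5 fell. Of the 10 chains 3 rose, 4 fell and 3 did not pass.

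Lama2 (ENSMUSG00000019899, GRCm38 chromosome 10, 26980036 to 27619758) measured 8.87 and 6.86 CPM in WT and 110 and 109 CPM in cKO. Both cKO libraries lay above 100 CPM and both WT libraries below 10 CPM. The log2 fold change was 3.79 ± 0.12 (SE, n = 2 per group; adjusted p = 1.08e-05, edgeR), or 13.8-fold. Lama4, the alpha chain of vessels and of fat and stromal cells, measured 65.9 and 63.1 CPM in WT and 53.6 and 51.0 CPM in cKO, a log2 fold change of -0.30 ± 0.07 (SE). Without either cKO library this stayed at -0.34 and -0.26, but its call was lost. Lama5, a broadly used basement membrane chain, stood at 57.2 and 47.2 CPM in WT against 33.7 and 33.2 CPM in cKO (log2 fold change -0.64, adjusted p = 0.00565, edgeR). Lama3, the alpha chain of epithelial laminin, moved alike, from 15.6 and 17.8 CPM to 10.1 and 10.0 CPM (log2 fold change -0.72, adjusted p = 0.00467, edgeR). Both calls were lost on the TPM scale. The groups of Lama3, Lama4 and Lama5 did not overlap, as was true of 68.9% of all genes tested. Lama1, an embryonic chain, was low at 2.23 to 3.89 CPM and did not pass (adjusted p = 0.168, edgeR).

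Per length, the alpha chains summed to 25.4 and 23.4 TPM in WT and 38.3 and 38.2 TPM in cKO. Lama2 made up 5.11% and 4.02% of that sum in WT and 50.8% and 52.2% in cKO. The share of Lama4 was 58.0% and 59.6% in WT and 33.3% and 31.9% in cKO, although its own level moved little. Lama5 went from 26.2% and 23.2% to 10.9% and 10.8%. These shares are descriptions and were not tested apart from the genes themselves. Beside them, 6 of 7 adipocyte markers were called higher and 1 lower, with a sum of 408 and 425 TPM in WT and 761 and 781 TPM in cKO. Of 8 endothelial markers 4 were tested, of which Kdr and Emcn were higher and Egfl7 lower; the list summed to 6.75 and 7.66 TPM in WT and 12.2 and 11.3 TPM in cKO, with Pecam1 at 0.25 TPM or less. The part of either list in the laminin changes was not tested.

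Among the beta chains the gene called higher was Lamb2 (ENSMUSG00000052911, chromosome 9, 108479736 to 108490530), a partner of Lama2 in muscle and synaptic laminins. It measured 193 and 205 CPM in WT and 382 and 384 CPM in cKO, 1.93-fold more (log2 fold change 0.95 ± 0.06, SE; adjusted p = 0.000157, edgeR). Lamb1, the common beta chain, stayed between 151 and 176 CPM with overlapping groups (log2 fold change -0.09, 95% interval -0.28 to 0.09). Lamb2 accordingly took 64.2% and 65.3% of the beta chain TPM in WT and 81.2% and 77.9% in cKO.

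Lamb3, the beta chain of epithelial laminin (ENSMUSG00000026639, chromosome 1, 193207699 to 193343878), showed the largest fall of the 39 genes. Its CPM was 2.96 and 3.36 in WT and 0.247 and 0.439 in cKO, from 100, 95, 6 and 14 counts. The log2 fold change was -3.14 ± 0.33 (SE; adjusted p = 0.00116, edgeR), 8.84-fold lower in cKO. Its table entry spans G0s2 and Hsd11b1 on the other strand. Hsd11b1 was called lower too (755 and 813 counts in WT, 161 and 196 in cKO), and the counting is not stated to use strand. Lamb3, G0s2 and Hsd11b1 had whole-number counts in every library. Nid2 and 2700060E02Rik, which overlap on opposite strands, had fractions (5296.31 and 3302.69 counts in WT 1). Any part of shared reads in the fall of Lamb3 was not tested. A list of 6 epithelial markers summed to 1.36 and 3.28 TPM in WT and 0.13 and 0.30 TPM in cKO, with 2 of the 3 tested called lower, and its part in the falls of Lamb3 and Lama3 was not tested.

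The gamma chain shared by most laminins, Lamc1, rose from 191 and 159 CPM to 247 CPM in both cKO libraries (log2 fold change 0.50, adjusted p = 0.0095, edgeR), a call lost at the same size (0.50 and 0.50) without either cKO library. Lamc3 had 5 to 22 counts and did not pass (adjusted p = 0.201, edgeR).

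**Figure D2:**
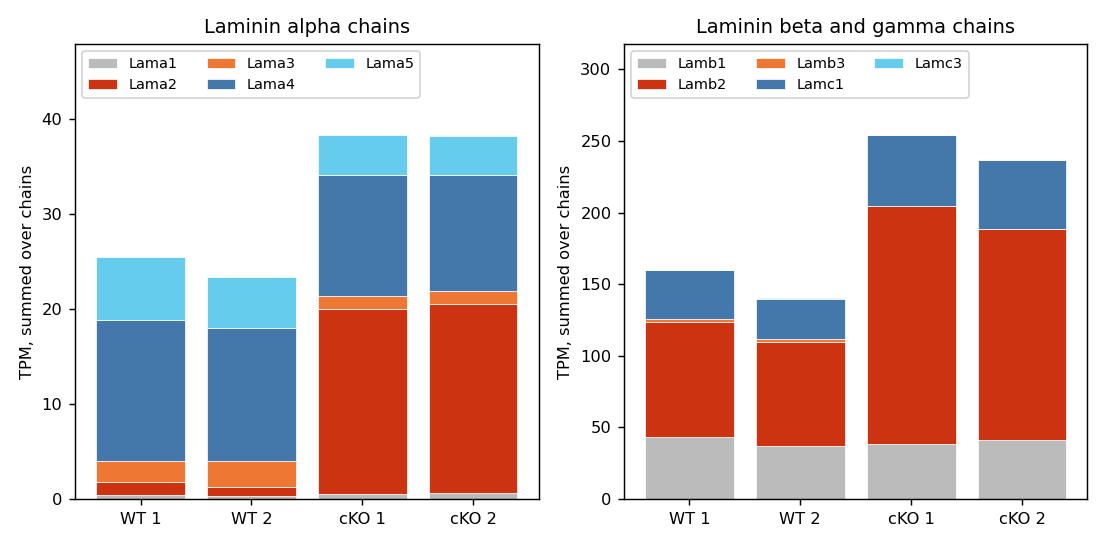
TPM of the laminin alpha chains (left) and of the beta and gamma chains (right), stacked for each library. In the cKO bars Lama2 reaches 19.4 and 19.9 TPM where it had 1.30 and 0.94 TPM in WT, and Lamb2 reaches 166 and 147 TPM against 80.6 and 72.8 TPM.

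The 2 nidogens, which link laminin to the collagen network of the basement membrane, moved apart. Nid1 measured 231 and 178 CPM in WT and 492 and 506 CPM in cKO (log2 fold change 1.28 ± 0.12, SE; adjusted p = 0.000709, edgeR). Nid2 fell instead, from 157 and 122 CPM to 78.3 and 81.8 CPM (log2 fold change -0.80 ± 0.12, SE; adjusted p = 0.00438, edgeR). The 2 genes took near equal parts of the nidogen TPM in WT, with Nid1 at 54.1% and 54.0%, and Nid1 took 83.4% and 83.2% in cKO. Nid2 shares part of its reads with 2700060E02Rik, which overlaps it on the other strand and was not called.

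Agrn, the proteoglycan agrin that bridges laminin to dystroglycan, was at 50.3 and 43.9 CPM in WT and 68.4 and 66.4 CPM in cKO (log2 fold change 0.51, adjusted p = 0.00568, edgeR). Hspg2, which encodes perlecan, the large heparan sulphate proteoglycan of basement membranes, did not pass on counts, with 851 and 693 CPM in WT and 701 and 698 CPM in cKO. On the TPM scale it was called lower (115 and 114 TPM in WT, 80.9 and 85.8 TPM in cKO).

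Fn1, which encodes fibronectin and is the ligand of Itga5, was the most abundant of the 41 genes in both groups and fell. It measured 5338 and 3893 CPM in WT and 2091 and 2063 CPM in cKO, so that the lower WT library still lay well above both cKO libraries. The log2 fold change was -1.15 ± 0.14 (SE; adjusted p = 0.00199, edgeR), 2.22-fold lower. Fn1 (ENSMUSG00000026193) lies on chromosome 1, 71585520 to 71653200.

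Vtn, which encodes the liver-derived plasma and matrix protein vitronectin, had 1 and 0 counts in WT and 14 and 24 counts in cKO. Summed over libraries the ratio was 42.0, with an exact 95% interval of 7.10 to 1704 that covers counting error only. The call (adjusted p = 0.00555, edgeR) thus rests on 38 reads in cKO, 0.59 and 0.70 TPM, which is little beside Fn1 at 395 and 391 TPM.

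The laminin-binding integrins were the only role group of more than 1 gene in which each member was called, 1 higher and 3 lower. Over all genes tested, 30.5% were called. Itga6, an alpha subunit that pairs with Itgb1 or Itgb4, rose. Itga3, Itga7 and Itgb4 fell.

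Itga6 measured 110 and 75.5 CPM in WT and 164 and 160 CPM in cKO. The groups did not overlap, and the gap between the WT libraries was smaller than the gap to the cKO libraries (log2 fold change 0.81 ± 0.16, SE; adjusted p = 0.0129, edgeR). Itga3, which binds laminins that hold Lama3 or Lama5, went down from 28.2 and 35.4 CPM to 14.0 and 13.6 CPM (log2 fold change -1.20 ± 0.13, SE; adjusted p = 0.00114, edgeR). Itga7, the alpha subunit of muscle, measured 13.2 and 9.23 CPM in WT and 5.28 and 4.55 CPM in cKO (log2 fold change -1.20, adjusted p = 0.00684, edgeR). Beside Itga7, a list of 6 mural and smooth muscle markers summed to 572 and 643 TPM in WT and 426 and 438 TPM in cKO, with 4 of 6 called lower, and its part was not tested.

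Itgb4, the beta subunit of hemidesmosomes in epithelia, had only 48 and 69 counts in WT and 13 and 23 in cKO. The log2 fold change was -1.58 (adjusted p = 0.0258, edgeR), and without either cKO library it was -1.40 and -1.83 with the call lost. Per length Itga6 was the most abundant of these 4 genes in every library, at 45.2 and 37.5 TPM in WT and 68.5 and 70.4 TPM in cKO. Itga3 came next at 8.38 and 10.0 TPM in WT and 4.26 and 4.10 TPM in cKO, and Itgb4 was last, at 1.53 TPM or less.

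Of the 4 collagen-binding subunits none was called higher and 2 were lower. Itga10, the collagen receptor subunit found mainly on cartilage cells (ENSMUSG00000090210, chromosome 3, 96645584 to 96664519), measured 40.9 and 39.6 CPM in WT and 9.32 and 9.13 CPM in cKO. Replicates lay within 2 CPM of each other in each group, and the log2 fold change was -2.13 ± 0.08 (SE; adjusted p = 2.32e-05, edgeR), 4.37-fold lower in cKO. Of 8 chondrocyte markers, 7 were called lower with it, and the list summed to 1412 and 1426 TPM in WT and 65.6 and 65.3 TPM in cKO, the part of which in the fall of Itga10 was not tested. Itga1 measured 31.6 and 30.3 CPM in WT and 26.4 and 24.1 CPM in cKO, a small fall (log2 fold change -0.30, adjusted p = 0.0405, edgeR). Without either cKO library its log2 fold change was -0.36 and -0.23, with the call lost. Pelo lies within Itga1 on the same strand and was not called. Itga11, the main collagen receptor subunit of fibroblasts and osteoblast precursors, overlapped between groups at 65.1 to 79.1 CPM (log2 fold change 0.00, 95% interval -0.24 to 0.23). Itga2 had 7 to 14 counts per library.

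Among subunits that bind the RGD tripeptide of fibronectin and vitronectin, 2 beta subunits of low abundance rose, Itga5 fell and 3 did not pass. Itgb8, which with Itgav releases active TGF-beta from its latent form (ENSMUSG00000025321, chromosome 12, 119158022 to 119238802), had 22 counts in each WT library and 132 and 148 in cKO. In CPM these were 0.650 and 0.778 against 5.44 and 4.64, a log2 fold change of 2.82 ± 0.24 (SE; adjusted p = 0.00047, edgeR), or 7.04-fold. Itgb3, the vitronectin receptor subunit of osteoclasts and platelets, rose from 5.08 and 3.29 CPM to 8.08 and 8.31 CPM (log2 fold change 0.96, adjusted p = 0.0184, edgeR), a call lost without either cKO library at values of 0.99 and 0.95. Neither gene was abundant: with Itgb1 and Itgb5 they shared the beta subunit TPM outside leukocytes, of which Itgb3 held 0.146% to 0.330% and Itgb8 0.0230% to 0.149%.

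Itga5, the main fibronectin receptor subunit, declined from 277 and 259 CPM to 217 and 213 CPM (log2 fold change -0.32, adjusted p = 0.0118, edgeR). Without either cKO library the log2 fold change was -0.33 and -0.30 and the call was lost. Itgav, the common alpha partner of Itgb3, Itgb5 and Itgb8, measured 190 and 216 CPM in WT and 197 and 204 CPM in cKO, with overlapping groups and a 95% interval of -0.21 to 0.16 (log2). Itgb5 stood at 464 and 446 CPM in WT and 495 and 506 CPM in cKO and did not pass (adjusted p = 0.119, edgeR). Itga8 (7.88 to 9.73 CPM), which overlaps Gm37701 on the same strand, did not pass either.

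Itgb1, the beta subunit shared by all the collagen and most of the laminin and fibronectin receptors, had 902 and 877 CPM in WT and 957 and 969 CPM in cKO (log2 fold change 0.11, 95% interval -0.02 to 0.25; adjusted p = 0.17, edgeR). It held 59.9% to 60.5% of the beta subunit TPM outside leukocytes in every library, and Itgb5 held 39.1% to 39.6%. Of the summed TPM of the 12 alpha subunits outside leukocytes, Itga6 held 16.7% and 14.6% in WT and 25.0% and 26.0% in cKO. Itga5 was the most abundant of the 12 in every library, with 32.3% and 31.1% in WT and 26.4% in both cKO libraries, where Itgav (25.9% and 24.8%) and Itga6 came close. Itga4 and Itga9, the subunits that bind Vcam1 and tenascin, overlapped between groups at 75.3 to 88.3 CPM and 37.3 to 49.0 CPM.

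**Figure D3:**
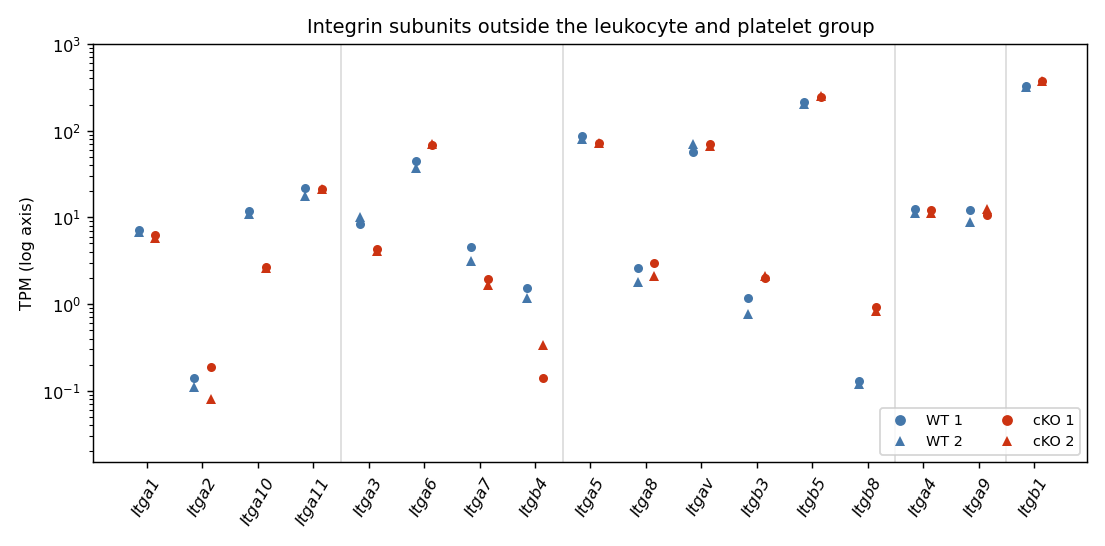
TPM of integrin subunits outside the leukocyte and platelet group, on a log axis, 1 point per library; grey lines part the role groups. Itgb6, at 0 in 2 libraries, is left out. Itga10, Itga3, Itga7 and Itgb4 sit lower in cKO and Itga6, Itgb3 and Itgb8 higher, while Itgb1 and Itgb5 stay near the top in both groups.

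Of the leukocyte integrins, Itgal, the alpha subunit of the lymphocyte function-associated antigen, fell, its beta partner Itgb2 rose slightly, and Itgam, the alpha subunit of the macrophage receptor Mac-1, did not pass. Of the 6 genes tested in this group 1 was higher and 2 were lower.

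Itgal (ENSMUSG00000030830, chromosome 7, 127296260 to 127335138) measured 253 and 271 CPM in WT and 72.6 and 75.4 CPM in cKO. Its log2 fold change of -1.82 ± 0.07 (SE; adjusted p = 1.73e-05, edgeR) is 3.53-fold lower in cKO. Itgam stood at 295 and 272 CPM in WT and 277 and 286 CPM in cKO, with a 95% interval of -0.17 to 0.15 (log2). Itgb2 measured 318 and 280 CPM in WT and 400 and 393 CPM in cKO (log2 fold change 0.41, adjusted p = 0.00959, edgeR), a call lost without either cKO library at values of 0.40 and 0.43. Of the TPM of the 3 alpha partners of Itgb2 measured here, Itgal held 44.4% and 48.8% in WT and 20.3% and 20.5% in cKO, and Itgam 54.7% and 50.5% in WT and 78.8% and 78.6% in cKO.

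Of the 12 general leukocyte markers, none was called lower and 5 were called higher. Among the 5 was Ptprc, the pan-leukocyte phosphatase, at 57.8 and 58.6 TPM in WT and 85.2 and 84.9 TPM in cKO. Tyrobp lay lower in cKO (408 and 424 CPM in WT, 373 and 369 CPM in cKO) but did not pass (adjusted p = 0.0727, edgeR). The part of leukocyte number in the fall of Itgal was not tested. The T lymphocyte markers Cd3e and Cd3g were at 0 in every library, and all 6 of that list summed to 0.30 TPM or less, beside Itgal at 22.5 to 76.5 TPM. A list of 8 neutrophil markers summed to 18.3 and 20.8 TPM in WT and 5.92 and 3.87 TPM in cKO, with S100a8 at 17.2, 18.7, 5.02 and 2.37 TPM and Mpo and S100a9 at 0, and its part in the fall of Itgal was not tested.

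Itgb7, the beta subunit of the gut-homing integrins, fell from 3.72 and 3.50 CPM to 1.15 and 1.13 CPM (log2 fold change -1.66 ± 0.22, SE; adjusted p = 0.00276, edgeR). Itgax, the dendritic cell subunit, had 52 to 131 counts and overlapping groups. Itga2b, the platelet subunit, had 25 to 52 counts and did not pass (adjusted p = 0.384, edgeR). Of the 6 megakaryocyte and platelet markers, Gp6 was at 0, and neither of the 2 tested was called.

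**Figure D4:**
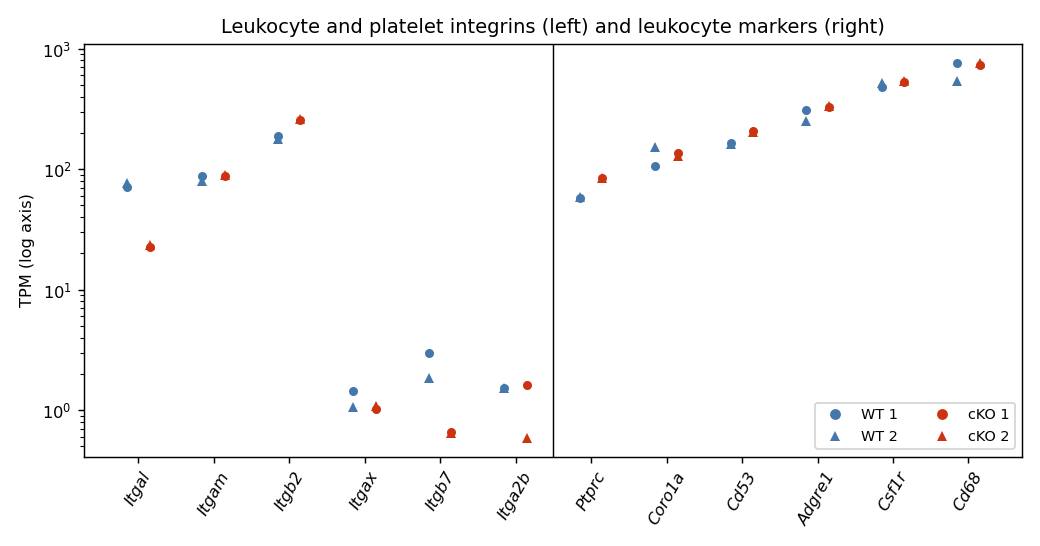
TPM per library of 6 leukocyte and platelet integrin genes (left) and of 6 of the 12 leukocyte markers (right), on a log axis. Itgal is the abundant integrin of the 6 that sits lower in cKO (22.5 and 23.5 TPM against 70.8 and 76.5 TPM in WT), next to Itgam at 79.1 to 90.3 TPM. The drawn markers have cKO points level with or above WT or between the WT points. Tyrobp, a marker of the list that is not drawn, lay lower in cKO (1675 and 1651 TPM) than in WT (1798 and 1686 TPM).

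Beyond these 41 genes, 3 lists of partner genes are described. Their shares stand beside 30.5% called over all genes tested, 13.7% higher and 16.8% lower. Of 40 integrin adaptors and focal adhesion genes, 38 were tested, 14 were higher and 2 lower (42.1% called, median log2 fold change 0.14). The largest rises were Tns1 (1.12), Lims2 (0.98) and Kank2 (0.55), all of them adaptors at integrin adhesions, and the 2 falls were Tln2 (-1.16), a talin that activates integrins, and Actn1 (-0.22). Of 19 laminin receptors and basement membrane partners, 15 were tested, 6 were higher and 5 lower (73.3% called, median 0.13). Among these Fras1 (1.50), Ntn4 (1.27) and Bcam (0.76), a receptor for Lama5, rose most, and Smoc2 (-1.49), Sdc4 (-1.15) and Sdc3 (-0.88), the last 2 being syndecans, fell most. Dag1, which encodes dystroglycan, the main non-integrin receptor of Lama2, was called higher as well (46.7 and 42.6 TPM in WT, 60.3 and 63.1 TPM in cKO). Of 17 other integrin ligands, 16 were tested, 4 were higher and 7 lower (68.8% called, median -0.28). There the rises were led by Npnt (2.21), the nephronectin ligand of Itga8, Tnc (0.80) and Jam2 (0.61), and the falls by Tnn (-3.34), Edil3 (-2.19) and Icam2 (-0.89), a ligand of Itgal. Tnn was 10.1-fold lower, and 6.09-fold lower without WT replicate 2. The calls of Actn1, Jam2 and Icam2 were lost without either cKO library. Each value in parentheses that follows a gene is a log2 fold change on counts.

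In the m6A peak list, 30 peaks had their summit in 16 of the 41 genes. The 16 were 10 of the 18 integrin genes outside the leukocyte and platelet group, the 3 laminin genes Lamb2, Lamb3 and Lamc1, and Fn1, Nid2 and Hspg2. No peak was listed in any laminin alpha chain gene or in any leukocyte or platelet integrin gene. Of all genes tested in RNA-seq 37.1% had a peak, and of the 39 genes here 16 did, so the count is near that background. Since all MeRIP samples share 1 list, the peaks have no replicate check.

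The peaks with the highest fold enrichment over the local background were those of Lamb3 (12.7), Itgb8 (8.09), Itga9 (7.28 and 5.49) and Itga4 (6.61), beside a median of 4.03 over all peaks and 3.12 over these 30. Positions are on mm9. The Lamb3 peak (chr1:195169706-195169981) lay in the 3′ UTR, with its summit 124 bases past the stop codon and a pileup of 16 fragments. The Itgb8 peak (chr12:120476343-120476608) lay in the 5′ UTR, in exon 1 of 14, also with a pileup of 16. The pileup of both was far below the median of 60 over all peaks. The Itga9 peaks (chr9:118806903-118807230 and chr9:118806510-118806740) and the Itga4 peak (chr2:79166746-79167040) lay in 3′ UTRs, with pileups of 68, 71 and 42. Another annotated gene also covered the Itga9 summits, and the peak list gives no strand, so their place in Itga9 is less certain.

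GGAC, the core of the motif at which m6A is placed, occurred in 28 of the 30 peaks on the transcribed strand, beside 86.9% of all peaks in genes. The 2 peaks without it were the Itga4 peak just named and the Itga9 peak at chr9:118806510-118806740. For the 3 most enriched peaks that hold the motif, the 20 bases around the GGAC nearest the summit are shown 5′ to 3′ on the gene's strand, with the motif in capitals.
Lamb3, chr1:195169802-195169821, plus strand: gtcaccctGGACgtgcttca
Itgb8, chr12:120476428-120476447, minus strand: gctgccctGGACcgaatacc
Itga9, chr9:118807033-118807052, plus strand: agcacaaaGGACatggcaag

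For coding-sequence peaks a longer stretch is shown, up to 60 bases of the exon on either side of the summit, again with GGAC in capitals. Nid2 and Lamc1 were taken because their windows hold 3 copies each, and Fn1 by its most enriched coding peak, whose window holds 1.
Nid2, chr14:20587788-20587908, plus strand: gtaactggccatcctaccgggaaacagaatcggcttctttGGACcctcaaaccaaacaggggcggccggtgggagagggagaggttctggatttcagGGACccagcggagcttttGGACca
Lamc1, chr1:155068668-155068788, minus strand: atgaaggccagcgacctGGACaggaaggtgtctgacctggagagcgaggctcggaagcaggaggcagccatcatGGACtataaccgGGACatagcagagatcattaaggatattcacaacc
Fn1, chr1:71672757-71672820, minus strand: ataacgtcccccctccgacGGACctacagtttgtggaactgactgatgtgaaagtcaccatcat

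By region, 11 of the 30 summits lay in coding sequence, 12 in 3′ UTRs, 3 in 5′ UTRs, 1 in a noncoding exon and 3 in introns. Where transcripts of a gene differ, coding sequence was put before 3′ UTR. With 3′ UTR first the counts were 9 and 14, because the Hspg2 peak and an Itgb1 peak change place. The Hspg2 summit lay 182 bases past the stop codon of the transcript with the longest coding sequence. Over all peaks in genes, 61.0% lay in coding sequence and 25.7% in 3′ UTRs. Of the 26 summits with a place on a coding transcript, 9 lay within 200 nt of the stop codon (34.6%, beside 30.4% of all). Fn1 held 6 peaks, 4 in coding exons and 2 in introns, and none of the 4 lay within 200 nt of the stop codon, with fold enrichments of 1.76 to 3.19 and pileups of 157 to 198. Itgb1, Itgb5 and Itga9 had 3 peaks each, and Itga4, Itga6 and Itgb3 had 2 each. The summit of an Itga6 peak lay 2 bases past the stop codon, and that of a coding peak of Itgb3 lay at -55 bases from its stop codon.

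**Figure D5:**
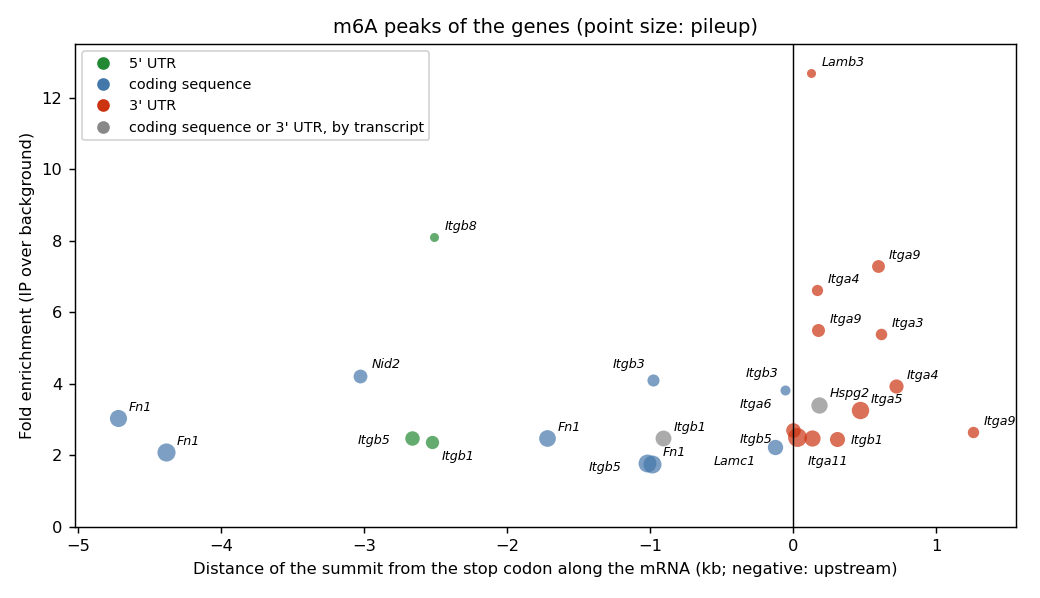
Fold enrichment of the 26 peaks that lie on a coding transcript, against the distance of the summit from the stop codon along the mRNA in kb; point size grows with pileup and colour gives the region. Grey marks summits that lie in coding sequence or 3′ UTR depending on the transcript. Lamb3 stands highest at 12.7 with a small pileup, while the 4 Fn1 points all lie upstream of the stop codon at fold enrichments of 3.04 or less.

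Genes with and without a peak moved in both directions. Of the 16 with a peak 5 were called higher (Itga6, Itgb3, Itgb8, Lamb2 and Lamc1) and 5 lower (Itga3, Itga5, Lamb3, Fn1 and Nid2), with a median log2 fold change of 0.05. Of the 23 tested without a peak 5 were higher and 9 lower, with a median of -0.09. Large changes occurred in both sets: Lamb3 and Itgb8, the genes of the 2 most enriched peaks, were among those with a peak, and Lama2, Nid1, Vtn, Itga10 and Itgal among those without. The genes with a peak were also the more abundant ones in WT, with a median of 35.1 TPM beside 3.85 TPM, and a difference in detection between them was not tested. Further, 2 peaks inside Itga1 introns lay in the coding sequence of Pelo, and 1 inside Itgae lay in that of Gsg2, so they were not counted here.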

How the data were processed

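RNA-seq reads were quality-checked by the authors (FastQC, FASTX), aligned by HISAT2 (2.0.4 in the submitters' processing notes) and passed to Ballgown. The authors deposited estimated counts per gene, not normalized, with GRCm38 positions, and values headed FPKM that sum to 1000000 per library and so are TPM. The counting tool and its use of strand are not given in the sources used here. Their peak list on mm9 is in the layout of MACS2, with the pileup signal, the fold enrichment as a ratio and −log10 of the q-value deposited by the authors for all 4 MeRIP samples in 1 list, and whether these were pooled is not stated.

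Counts were rounded, filtered with filterByExpr, scaled by TMM (CPM) and tested with edgeR 4.0.16 (two-sided quasi-likelihood F test without a block), and p-values were Benjamini-Hochberg adjusted across 15327 genes. Standard errors came from the F statistic. The 89 entries without a gene name (0.110% to 0.125% of counts) were left out. The fits were tested on simulated data with equal spread in every library. The unequal spread of the real WT and cKO pairs was not covered by that test. With 2 against 2 libraries, an exact permutation test cannot go below p = 0.333. A peak went to the gene whose exon held its summit, and otherwise to the gene around it (GENCODE vM1, NCBIM37, which is mm9). Every one of the 41 genes is accounted for, 3 rises and 3 falls are named from each partner list, and the 5 most enriched peaks are described; Dag1 and the other peaks given singly were picked after their values were seen. Members and lists were chosen with earlier results of these data known. Alternatives were DESeq2 1.42.0, limma 3.58.1 on log2(TPM + 0.1) and log2(TPM + 1), and those named in the closing section.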

Additional observations from a re-analysis of the deposited data

How the results depend on the processing

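None of the 24 called genes changed direction under any alternative that could be fitted. Apart from an ordinary linear model per gene, 11 stayed past the threshold in each alternative that fitted them. These were Itga6, Itgb8, Lama2, Lamb2, Vtn, Nid1, Itga10, Itga3, Itgal, Lamb3 and Fn1. Vtn was fitted in only 10 of the 13 alternatives, because its TPM lay under the filter of the others. That ordinary model on log2(TPM + 1) called 99 genes in all, and 0 of these genes higher and 0 lower. limma called 2852 genes on log2(TPM + 0.1), 2831 on log2(TPM + 1), with 9 of these genes lower, and 1760 on log2(TPM + 0.1) without a filter, with 6 of these genes lower. Summing the cKO libraries to 1 sample left 2012 calls. Leaving out 1 library in turn gave 1867 to 8750 calls over all genes, 7 to 16 of these genes higher and 10 to 19 lower; the most came without a WT library, where the lone sample is assumed to vary like the cKO pair. Without either cKO library the calls of Itgb2, Itga5, Lama4, Itgb3, Itgb4, Lamc1 and Itga1 were lost. On log2(TPM + 0.1) those of Itga5, Lama5, Lama4, Itgb3, Lama3 and Itga1 were lost and Hspg2 was called; log2(TPM + 1) lost Itga7 too, and without a filter Itga7, Itgb7, Itgb4, Nid2 and Agrn were lost too. DESeq2 lost Itga1 alone. The median log2 fold change over all genes was 0.098 on log2(TPM + 0.1) and 0.088 on log2(TPM + 1). It was 0.064 on log2(TPM + 0.1) without a filter, beside -0.0038 on counts in the main fit. The cause of the lost calls was not tested.

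The replicate numbers did not pair the samples (correlation of same-numbered deviations 0.026), and a fit with the replicate block called 4881 genes, with 10 of these genes higher and 14 lower as before. Direction changed only among genes not called. For Itga11 the log2 fold change was 0.0052 with the block, 9.5e-05 without a filter, 0.0026 with median-of-ratios size factors, 0.0033 in DESeq2, 0.0057 with cKO summed, and 0.13, 0.12, 0.13 and 0.12 on the 4 TPM settings, in the order given above for limma and then the ordinary model. On TPM it was 0.00081 or 0.00072 for Lamb1, 0.13 or 0.12 for Itgav, 0.095 or 0.094 for Itgam, -0.21 or -0.13 for Itgax, and 0.025 for Itga2 without a filter. With 1 library left out it ranged from -0.18 to 0.0056 for Lamb1, -0.80 to 0.48 for Itga2, -0.28 to 0.020 for Hspg2, -0.072 to 0.054 for Itgam, -0.14 to 0.15 for Itga11, -0.10 to 0.071 for Itgav, -0.41 to 0.67 for Itgax, -0.063 to 0.32 for Itga9 and -0.0040 to 0.23 for Itga8. The 16 genes with a peak became 12 at a fold enrichment of at least 3 and stayed 16 at −log10 q of at least 5 or by exon overlap. Groups of 2 libraries limit every test here, and genes with few counts, such as Itgb4, Vtn and Lamc3, are limited by depth.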
